A study of Mus musculus with 2 samples.

Results

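The enzymes that break down tryptophan along the kynurenine pathway were compared between luminal mammary cells with high and with low activity of the Tbx3 locus. The set holds 9 genes named for this pathway, Ido1, Ido2, Tdo2, Afmid, Kmo, Kynu, Haao, Qprt and Aadat, and was chosen because Ido1 was already known to be among the largest differences of these data. Every probe set that the array annotation assigns to a member alone was used, which gave 15 probe sets of 9 genes out of 29338 probe sets and 13869 named genes in the value table. The values of Ido1 are therefore a description.

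Cells came from a pool of 3 adult virgin female mice, 5 months old and on an FVB background. All 3 were heterozygous Tbx3+/Venus knock-ins, in which the coding sequence of the yellow fluorescent protein Venus replaces the product of a single Tbx3 allele. Both populations thus lack a Tbx3 allele, and the comparison holds no wildtype cells. Lymphocytes carrying CD45, stromal cells and dead cells were gated out, luminal cells were taken by CD24 and CD49f, and 200000 cells with high Venus signal (VenusHigh) and 200000 with a low or negative signal (VenusLow) were sorted. Each population was hybridized to 1 Affymetrix GeneChip Mouse Genome array, so there are no replicates, the differences below have no replicate check, and the number of arrays limits the precision. In bulk RNA of sorted cells, fewer cells that express a gene and less RNA per cell cannot be told apart.

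The values are log2 signals with a floor at a signal of 10, which is 3.32 on the log2 scale. At the floor on both arrays there is only a bound on the level and no difference, and at the floor in VenusLow cells alone a fold is a lower bound. Of the 29338 probe sets, 12968 were higher in VenusHigh cells, 0 were lower in VenusHigh cells and 16370 had the floor value in both populations. Genes or probe sets lower in VenusHigh cells are not analysed here, so a floor value speaks for the probe sets present and for no other. A probe set was called higher when its log2 difference, VenusHigh minus VenusLow, was at least 2 (4-fold) and its VenusHigh signal at least 100. The sort is visible in Tbx3 itself, with log2 signals of 8.72 in VenusHigh and 3.62 in VenusLow cells, and in the hormone receptor genes Esr1 (10.62 and 7.64) and Pgr (11.93 and 5.05). Of 8 luminal markers, 5 were in the table and all 5 reached a signal of 100 on both arrays, with a median log2 difference of 0.78. Krt8 had 13.22 and 13.13 and Cdh1 had 12.03 and 11.84, Cd24a (13.17 and 12.39) and Krt19 (12.94 and 11.96) lay further apart, and Krt7, another keratin, was called higher in VenusHigh cells (12.50 and 8.80). None of 8 listed alveolar progenitor genes has a probe set in the table, so the identity of the VenusLow cells was not checked here.

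Tryptophan is an essential amino acid with several fates, among them protein synthesis, serotonin and, for the larger part of what the body degrades, the kynurenine pathway. The ring is opened by indoleamine 2,3-dioxygenase 1 (Ido1) or its relative Ido2, or in liver by tryptophan 2,3-dioxygenase (Tdo2), and the product is turned into kynurenine, from which separate branches lead to kynurenic acid, to anthranilic acid and through quinolinic acid to NAD. Ido1 is best known from dendritic cells, macrophages and other cells under interferon gamma, where loss of tryptophan and build-up of kynurenine restrain T cells.

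Of the enzymes that can carry out the first step, Ido1 alone had a signal above the floor, and it was 135-fold higher in luminal VenusHigh than in VenusLow cells. Its only probe set in the table, 1420437_at, had a log2 signal of 11.80 in VenusHigh cells and 4.72 in VenusLow cells. On the linear scale these are signals of 3573 and 26.4. The VenusLow value thus lay above the floor but below the minimum of 100, and the VenusHigh value far above both. The log2 difference was 7.08, the 9th largest of 13869 genes, each taken at its brightest probe set, the one with the highest mean over both arrays. With the floor raised to a signal of 32 the difference was 6.80, ranked 8, and with a floor of 100 it was 5.16, ranked 12. As a scale for these values, log2 differences of probe sets of the same gene varied with a pooled SD of 0.31 over 1062 genes. Only probe sets with a VenusHigh signal of at least 100 entered it, so fainter ones, such as those of Afmid, are not covered. That SD describes probe sets within this pair of arrays, not animals, and comes from a table without negative differences, so it may be too small.

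**Figure D1:**
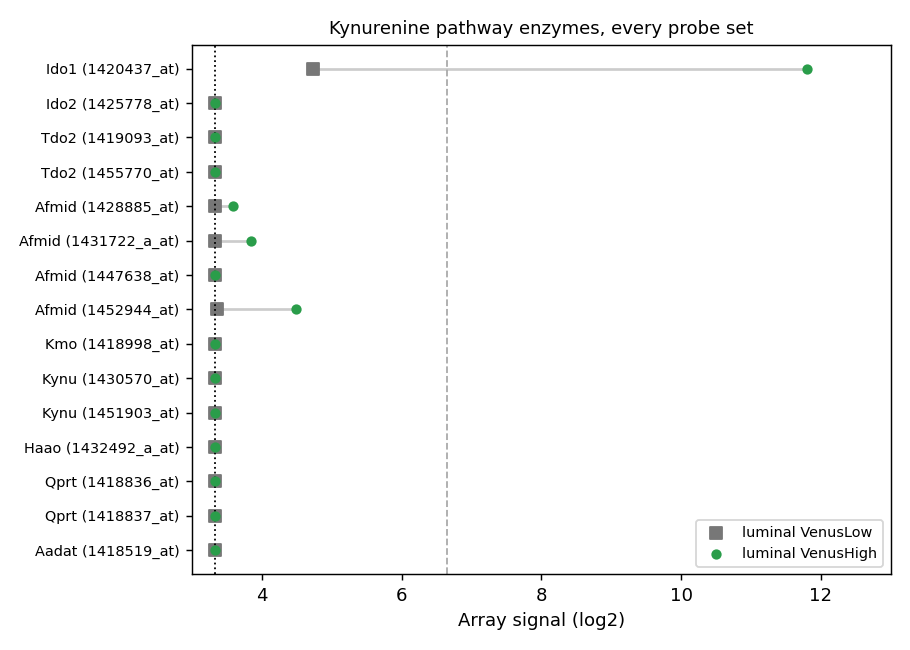
Array signal (log2, horizontal axis) of all 15 probe sets of the 9 kynurenine pathway genes (rows, probe set in parentheses) in luminal VenusHigh (green circles) and luminal VenusLow cells (grey squares), 1 array each. The dotted line is the floor (a signal of 10) and the dashed line a signal of 100. The 1 probe set of Ido1 spans from 4.72 to 11.80, 3 probe sets of Afmid rise above the floor in VenusHigh cells, to at most 4.48, and the other 11 lie at the floor on both arrays.

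The other enzymes of the first step were listed at the floor on both arrays. Ido2, which lies next to Ido1 on mouse chromosome 8 in the GRCm38.p6 annotation, had 1 probe set in the table, with 3.32 in VenusHigh and 3.32 in VenusLow cells. The high Ido1 signal was therefore not shared by the probe set of its neighbour. A long noncoding RNA gene, Gm51565, overlaps Ido1 in that annotation, and its part in the Ido1 signal was not tested. Tdo2, the liver enzyme, had 2 probe sets, and both had 3.32 in each population.

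Afmid encodes the formamidase that turns the ring-opened product into kynurenine. It was the single member after the first step with any value above the floor. Its brightest probe set, 1452944_at, had log2 signals of 4.48 in VenusHigh and 3.35 in VenusLow cells, or 22.3 and 10.2 on the linear scale. Another pair, 1431722_a_at and 1428885_at, had 3.84 and 3.58 in VenusHigh cells and lay at the floor in VenusLow cells. The fourth, 1447638_at, lay at the floor on both arrays. All 4 signals stayed far under the minimum of 100, and with the floor at 32 every Afmid difference is 0.

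The enzymes that act on kynurenine itself were listed at the floor in both populations. Kmo, the hydroxylase that opens the route towards quinolinic acid, and Aadat, an aminotransferase that makes kynurenic acid, had 3.32 on both arrays on 1 probe set each. Kynu, the kynureninase that splits off alanine, was at the floor on both of its probe sets. Haao, whose product gives rise to quinolinic acid, was at the floor on 1 probe set, and Qprt, which feeds quinolinic acid into NAD synthesis, on 2. In all, 7 of the 9 genes were at the floor on every probe set in the table, and 11 of the 15 probe sets. Of all genes in the table, which holds no probe set lower in VenusHigh cells, 48.2% were in that state, and of all its probe sets, 55.8%. A floor value bounds the signal of a probe set and does not show that a transcript is absent. Nampt, which makes NAD from nicotinamide, and Atf4, a widely used stress factor, were also listed at the floor, each with 1 probe set present. For these 7 genes any probe set lower in VenusHigh cells is not analysed here.

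Of the 15 member probe sets, 1 reached a signal of 100 and was called higher, that of Ido1. Over all probe sets in the table, 1.79% were called, and 8.93% of those that reached a signal of 100. Per gene these shares were 2.38% and 8.58%. Since Ido1 led to the choice of the set, nothing is read from this count. The median log2 difference over the 9 genes was 0, against 0.02 over all genes in the table.

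The genes whose pair of values lay nearest to that of Ido1, by Euclidean distance over the 2 arrays, included a hormone receptor. Pgr, the progesterone receptor, was nearest, at 0.35 log2 units (11.93 in VenusHigh and 5.05 in VenusLow cells). Slc7a2, a transporter of arginine and other cationic amino acids, also lay 0.35 away (11.91 and 5.06). Then came Stc2, which encodes the secreted glycoprotein stanniocalcin 2, at 0.56 (11.85 and 5.28), Gipc2 at 0.60 (11.20 and 4.68) and Gpx3, a secreted glutathione peroxidase, at 0.64 (12.19 and 5.24). With 2 arrays this says only that these probe sets had like values on each.

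**Figure D2:**
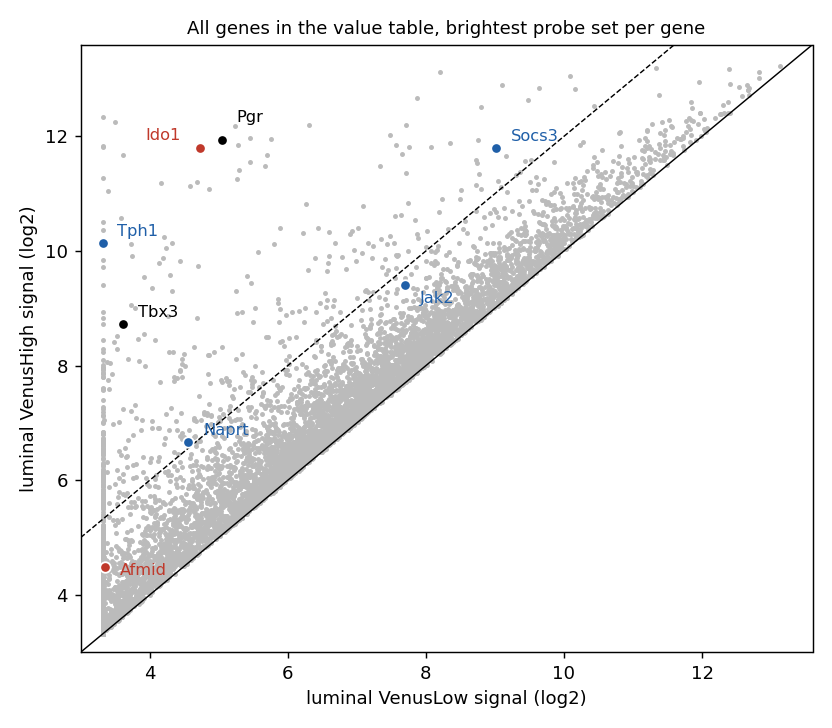
Array signal (log2) of each gene in the value table in luminal VenusLow (horizontal axis) and luminal VenusHigh cells (vertical axis), 1 array each, with each gene at its brightest probe set. The solid line marks equal values and the dashed line a log2 difference of 2. Points lie on or above the solid line because the table holds no gene lower in VenusHigh cells. Ido1 (11.80 and 4.72) lies beside Pgr, and Afmid, the other member above the floor (red), lies near the lower left corner. Other genes named in the text are in blue or black.

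Serotonin is another signal made from tryptophan, and its first enzyme stood out with Ido1. Tph1, the tryptophan hydroxylase of tissues outside the brain, had a log2 signal of 10.14 in VenusHigh cells and lay at the floor in VenusLow cells on its 1 probe set. It was at least 113-fold higher, with a log2 difference of at least 6.82, or 3.50 with the floor at 100. Of Ido1, Ido2, Tdo2, Tph1 and Tph2, which take tryptophan into the kynurenine or serotonin route, Ido1 and Tph1 were thus the ones above the floor on these probe sets. Tph2, the neuronal hydroxylase, and Ddc, the decarboxylase that completes serotonin, were at the floor on both arrays. Maoa, the oxidase that degrades serotonin, had 8.70 and 8.04, and median centring of the arrays removes this difference. The centring shift was taken from a table with no probe set lower in VenusHigh cells, so it could only reduce differences. Maob, Aanat and Asmt are not analysed here. Of this list, 4 of 7 genes were in the table and 1 was called, where 2.38% of all genes in the table were called.

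Among other enzymes that act on kynurenine or tryptophan, the aminotransferases Got2, a mitochondrial enzyme that also makes aspartate, and Kyat1 had log2 signals of 9.89 and 9.74 and of 6.86 and 6.52 in VenusHigh and VenusLow cells. Kyat3, a related aminotransferase, had 5.95 and 4.85, a difference of 1.10 with both signals under 100. None of the 3 genes in the table, of 5 listed, was called. Acmsd and Il4i1 are not analysed here.

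Among transporters that carry tryptophan or its neighbours in structure, 6 of 10 listed genes were in the table and none was called. Slc7a7, a subunit of an amino acid exchanger, had log2 signals of 6.93 in VenusHigh and 5.69 in VenusLow cells, and Slc7a6, its close relative, had 5.44 and 5.00. Slc43a1 had 4.15 in VenusHigh cells and was at the floor in VenusLow cells. For Slc16a10, Slc43a2 and Slc6a19, no probe set in the table rose above the floor value of 3.32 in either population. Slc7a5 and Slc3a2, which together form the main importer of large neutral amino acids, and Slc7a8 and Slc6a14 are not analysed here. With these missing, no direction is given for the list.

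Wars, the tryptophanyl-tRNA synthetase, which interferon gamma induces together with Ido1 in many cells, was 1 of 6 genes in the table out of 8 listed for tRNA charging and amino acid stress, and none of them was called. Its brightest probe set gave 7.43 and 6.06 on the log2 scale, a difference of 1.37. Its 3 other probe sets differed by 0.63, 0.97 and 1.04, with signals between 4.15 and 6.64 on the log2 scale. Asns, a target of the amino acid stress response that makes asparagine, had 7.76 and 7.72, and Trib3, another such target, had 6.01 and 5.90. Their differences of 0.04 and 0.11 become negative under median centring, which lowers every difference by 0.66. In a table with no probe set lower in VenusHigh cells this shift could not go the other way, and it may be too large. Ddit3 and Wars2 are not analysed here.

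Genes listed for NAD synthesis after quinolinic acid or by salvage of other precursors were read as a list of their own. Naprt, which starts NAD synthesis from nicotinic acid, was the 1 called gene among 8 in the table of 10 listed, with log2 signals of 6.66 and 4.56. Its VenusHigh signal lay just inside the minimum of 100 and its difference of 2.10 just inside the 4-fold limit, and the call ended under median centring (1.44), quantile normalization (1.32) and a floor of 32 (1.66) or 100 (0.02). Nadsyn1, the enzyme of the last step, had 5.90 and 5.35, and Nmnat2, of the step before it, had 5.13 and 3.72. Nmrk1 had 4.33 and 3.67 on its brightest probe set. Nmnat3 and Nmrk2 were at the floor on both arrays, as was Nampt. So was Nnmt, which was listed with them but does not itself make NAD. Nmnat1 and Nadk are not analysed here.

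Kynurenine and kynurenic acid can bind the aryl hydrocarbon receptor, whose gene and targets were read as a separate list. Ahr had log2 signals of 4.81 in VenusHigh and 4.19 in VenusLow cells, both under a signal of 100. Its classical targets Cyp1a1, Cyp1a2 and Cyp1b1, and Ahrr, which encodes its repressor, were at the floor on both arrays. Tiparp, another target, had 9.66 and 9.39, and its difference of 0.27 is negative after median centring. Gpr35, a receptor for kynurenic acid, was at the floor on both arrays. None of the 7 genes in the table, of 9 listed, was called, and Arnt and Nqo1 are not analysed here.

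Genes of the interferon and cytokine signaling that induces or limits Ido1 included a called gene on several probe sets. Socs3, an inhibitor of cytokine signaling that is also known to direct Ido1 protein to degradation, was 1 called gene of 7 in the table. All 3 of its probe sets were called. Its brightest probe set had log2 signals of 11.80 in VenusHigh and 9.02 in VenusLow cells, and the other two had 10.83 and 8.02, and 10.03 and 7.29. The differences, from 2.75 to 2.81, varied by less than the pooled SD of 0.31 given above. For the brightest probe set the difference was 2.12 after median centring and 2.10 after quantile normalization, and it was the same with the floor at 100.

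Jak2, the kinase that passes on the signal of the interferon gamma and prolactin receptors, had log2 signals of 9.41 and 7.70 on its brightest probe set and 8.46 and 6.82 on the other. Its differences of 1.71 and 1.64 lay under the 4-fold limit, and that of the brightest was 1.05 after median centring. Stat2 and Irf8, transcription factors of the interferon response, had differences of 1.77 and 1.73, with VenusHigh signals of 5.30 and 5.27 on the log2 scale, under the minimum. Irf9, a partner of Stat2, had 7.48 and 7.22. Bin1, described as a suppressor of Ido1 expression, had 1 probe set, at the floor in both populations. Irf1, Ifngr1, Ifngr2, Jak1, Ifnar2 and Socs1 are not analysed here, so no direction is given for the list. These lists hold 63 genes in all, of which 41 were in the table and 12 had a VenusHigh signal of at least 100, and 3 of them, Tph1, Socs3 and Naprt, were called. Over all genes, 2.38% of those in the table and 8.58% of those that reached a signal of 100 were called.

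**Figure D3:**
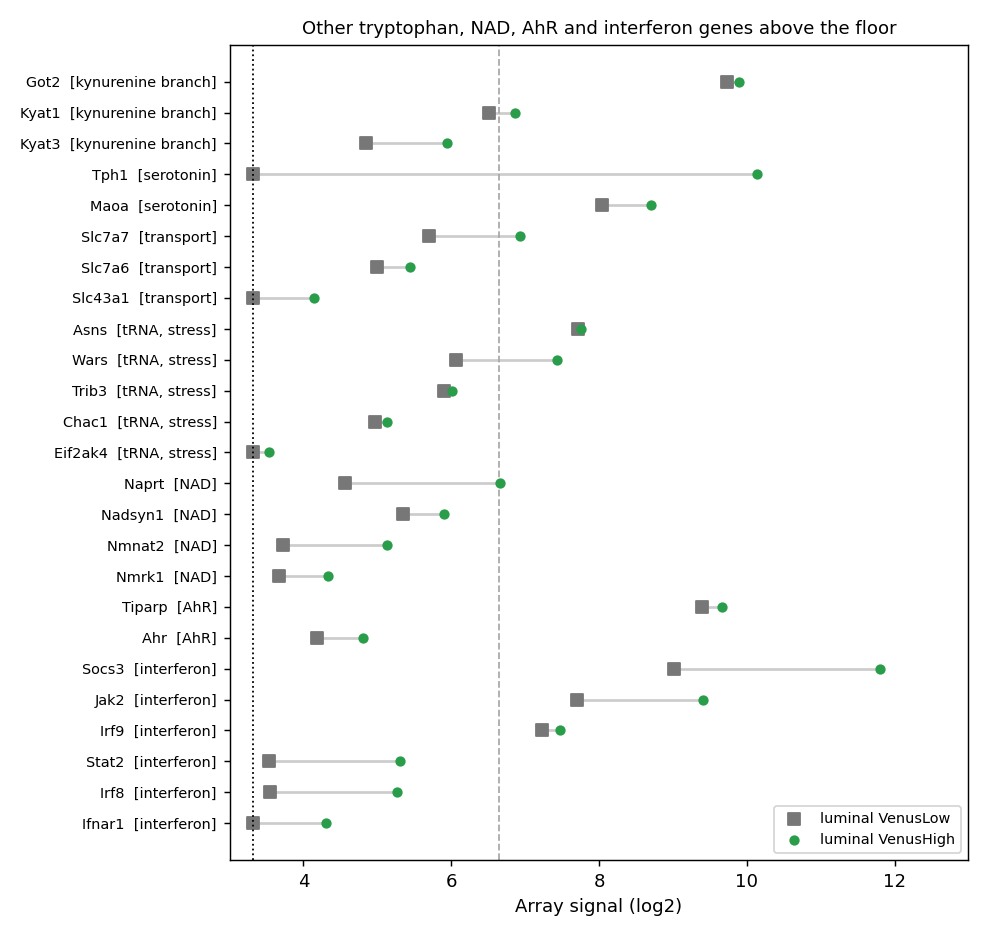
Array signal (log2, horizontal axis) of the 25 listed genes outside the 9 members whose brightest probe set was above the floor, grouped by list, in luminal VenusHigh (green circles) and luminal VenusLow cells (grey squares), 1 array each. The dotted line is the floor and the dashed line a signal of 100. Tph1 spans from the floor to 10.14 and Socs3 from 9.02 to 11.80, while Got2, Asns and Tiparp have nearly the same value in both.

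Immune cells are a known source of Ido1, and mast cells of Tph1, so markers of other cell types were read beside them. Of 14 dendritic cell and macrophage markers, 8 were in the table, and Ptprc (CD45), Itgax, Itgam, H2-Aa, H2-Ab1, Lyz2 and Xcr1 were at the floor on both arrays. Fcgr1, the eighth, had 4.05 and 3.79. Their summed signal was 86.6 in VenusHigh and 83.8 in VenusLow cells, where a gene at the floor counts as 10. No such sum can be lower in VenusHigh cells, since the table holds no probe set lower in them. The other 6, Cd74, Flt3 and Csf1r among them, are not analysed here. All 7 mast cell markers, Cpa3, Mcpt4 and Hdc among them, were at the floor on both arrays. Of 8 lymphocyte markers, 7 were in the table and 6 of these, Cd3e and Ms4a1 among them, were at the floor, with summed signals of 78.3 and 72.3. Of 8 basal markers, 5 were in the table, including Krt14 and Trp63, all at the floor.

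Of 8 fibroblast and endothelial markers, 6 were in the table, and 1 of them, Vwf, was called. Their median log2 difference was 0.30, and their summed signal, most of it from Vwf in VenusHigh cells, was 263 in VenusHigh and 89.5 in VenusLow cells. By the make-up of the table, neither the median nor the sum could favour VenusLow cells. Vwf, made by endothelial cells, had 7.26 in VenusHigh and 4.31 in VenusLow cells on the log2 scale (2.95 apart, or 0.62 with the floor at 100). Dcn, a matrix proteoglycan of fibroblasts, had 6.01 and 4.89, both under a signal of 100. Cdh5, a defining endothelial gene, and Col3a1 were at the floor on both arrays. Kdr and Col1a1 had 3.78 and 3.47 in VenusHigh cells and were at the floor in VenusLow cells, and Pecam1 and Pdgfra are not analysed here. The part of such cells in the Ido1 and Tph1 signals was not tested.

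**Figure D4:**
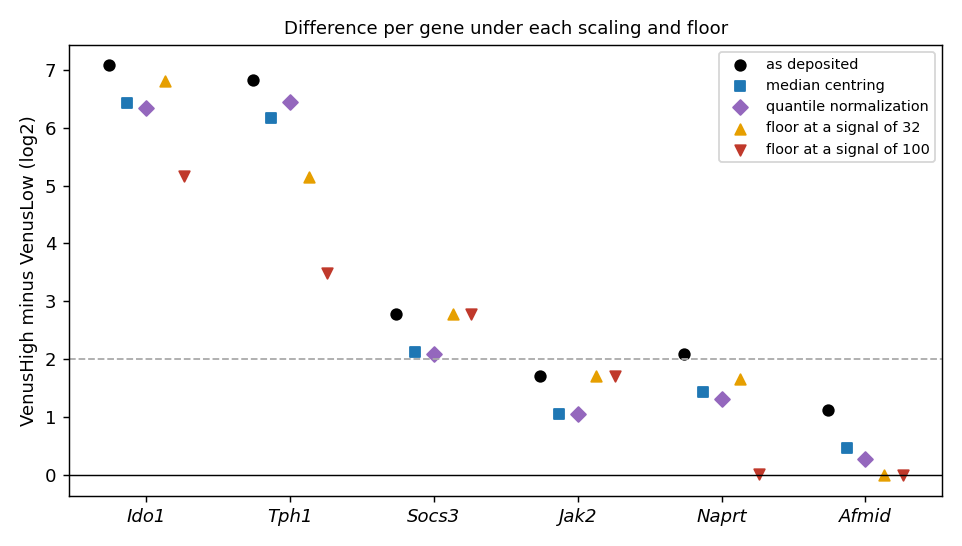
Log2 difference, VenusHigh minus VenusLow (vertical axis), of 6 genes on their brightest probe sets, with the values as deposited, after median centring or quantile normalization, and with the floor at a signal of 32 or 100. The dashed line marks a difference of 2. Ido1 stays between 5.16 and 7.08 and Tph1 between 3.50 and 6.82, Socs3 stays above 2, and Naprt (2.10 as deposited) and Afmid (1.13) fall to 0.02 and 0 with the floor at 100.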

How the data were processed

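Total RNA of the sorted cells (250 ng per population) was labelled and hybridized to 1 array per population. The deposited table holds log2 signals, which the authors obtained by log transformation followed by normalization and centring of each array in BRB Array software. MAS5 is named in the submitters' processing notes. Which reference was used, and detection calls, are not given in the sources used here. Samples were grouped by the label for Tbx3 promoter activity. Names came from the array's annotation, which pairs 22223 probe sets with 1 symbol, 602 with several and leaves 6513 unnamed. Gene identifiers gave the current symbols in the RefSeq table of GRCm38.p6, and all 9 member symbols matched. Where a single value per gene was needed, its brightest probe set (highest mean over both arrays) was used.

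With 1 array per group no test was made. Members and gene lists were chosen with earlier results of these data known. The rule for named genes took every member, the 5 genes nearest to Ido1, and from each list the called genes or up to 3 with the highest VenusHigh value. Other list genes are named to account for the list, with their values known. Alternatives were median centring, quantile normalization, floors of 32 and 100, signal minimums of 50, 200 or none, 2-fold and 8-fold limits, the median over the probe sets of a gene, and leaving out probe sets with the endings _s_at, _a_at or _x_at. Python 3.11.15, numpy 2.4.6, pandas 2.3.3 and matplotlib 3.10.9 were used. The code for the calls was checked on simulated data in which the raised genes had a VenusLow signal of at least 100. That check does not measure how reliable the calls are.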

Additional observations from a re-analysis of the deposited data

How the results depend on the processing

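The log2 difference of Ido1 was 7.08 as deposited, 6.42 after median centring, 6.33 after quantile normalization, 6.80 with the floor at a signal of 32 and 5.16 with the floor at 100. It kept its direction and its 4-fold call under each, though a raised floor cannot reverse a direction. Its size moved by more than the pooled SD of 0.31 under median centring, quantile normalization and the floor of 100. The count of member probe sets called stayed at 1, that of Ido1, under all 10 alternatives tried for it. The count of other pathway genes called was 3 as deposited, 6 with a 2-fold limit (Jak2, Slc7a7 and Wars in addition) and 1, Tph1, with an 8-fold limit. It was 2 under median centring, quantile normalization, either raised floor or a signal minimum of 200, each of which left out Naprt. Median centring and quantile normalization were run on a table with no probe set lower in VenusHigh cells, so both may lower differences too far. No paired analysis was possible because each population has 1 array and the labels carry no replicate numbers. Signals near the floor limit the differences of Afmid, Naprt and Tph1. The size of the Ido1 difference is limited as well, since its VenusLow signal was 26.4. Nothing is known of the spread between pools of mice.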
